A study of Mus musculus with 9 samples.

Results

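Gained regions are stretches of the mouse autosomes (chromosomes 1 to 19) that lay inside a Lamin B1 domain in all 3 heart samples of embryonic day 12.5 (E12.5) and in none of the 4 of embryonic day 9.5 (E9.5). They were found by marking each 1-kb position of each autosome as inside or outside the domains of each of the 7 lists and keeping every unbroken stretch that met this condition, whatever its length. The rule gave 250 regions summing to 22.6 Mb, from lists that together hold 10335 autosomal domains. They take up 0.917% of the 2466 Mb of autosome, measured up to the furthest domain end, and 1.58% of the length that any of the samples had in a domain. The regions were chosen by the domain calls of all 7 samples, so their presence at E12.5 and absence at E9.5 is a description and not a finding, and no test was made of it.

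The samples were whole hearts of untreated CD1 embryos, an outbred stock. At E9.5 the hearts of 3 litters went into each sample, and at E12.5 the hearts of 6 embryos, so age and the kind of pool cannot be told apart. Fixed chromatin was precipitated with an antibody to Lamin B1 and sequenced, and the authors deposited 1 list of domains per sample. A whole heart holds muscle, endocardial and other cells, and the lists do not tell in which of them a region was bound. The lists give positions only, so a region outside a domain is one that was not called, which is not the same as one without contact.

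The nuclear lamina is a mesh of lamin filaments under the inner nuclear membrane. Long stretches of chromosome, the lamina-associated domains, lie against it, and these tend to be poor in genes and in transcription and to carry marks of heterochromatin. Some domains are held in most cell types while others are gained or lost as cells differentiate, and genes of other lineages are often among those held at the lamina.

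Each list held 1500 domains, 1463 to 1488 of them on autosomes. At E9.5 the autosomal length in domains was 782.5 Mb ± 18.1 (SD, n = 4). At E12.5 it was 780.9 Mb ± 7.88 (SD, n = 3). This is 31.1% to 32.6% of them in every sample. With a nearly constant total, length gained in one place goes with length lost in another. All lists hold the same number of domains, and whether the calling set this number is not stated. The nearly constant total may therefore come from the calling, which was not tested. The median autosomal domain was 227 to 243.5 kb long at E9.5 and 310 to 311 kb at E12.5. Read depth is unknown for such lists, so no counting interval can be given.

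Most gained regions were short next to the domains they belong to. Their median length was 64 kb, the middle 50% lay between 21.25 and 133 kb, and 33 were under 10 kb. The 84 regions of at least 100 kb held 71.6% of the length, and 30 reached 200 kb or more. Just outside the rule, 66.4 Mb lay in 2 of the 3 E12.5 samples and in no E9.5 sample, and 29.0 Mb lay in all 3 E12.5 samples and in 1 E9.5 sample. The length therefore depends on how strict the rule is. Without E9.5 replicate 1 it was 34.8 Mb, and without E12.5 replicate 1, 2 or 3 it was 44.0, 45.2 or 45.0 Mb.

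The longest gained region covered 821 kb of chromosome 6 (mm9, chr6:94389001-95210000). At E9.5 it lay in gaps between domains that were 2130, 2450, 1826 and 2792 kb long in replicates 1 to 4. At E12.5 the domains that held it were 2434, 963 and 1149 kb long in replicates 1 to 3. On its right side a domain of E9.5 replicate 1 began at its very edge and one of E9.5 replicate 3 began 75 kb away, while in the other two E9.5 samples the next domain was 1406 and 963 kb off. On its left side the nearest E9.5 domain was 223 kb away. The E12.5 domains reached past the right edge in every sample, into a stretch where 2 of the 4 E9.5 samples had domains.

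A region of 496 kb on chromosome 4 (chr4:103604001-104100000) was second in length. It lay in E9.5 gaps of 3254, 6011, 3454 and 2243 kb and in E12.5 domains of 964, 1059 and 900 kb. Only E9.5 replicate 1 had a domain at its left edge, and in the other E9.5 samples the nearest domain was 668 to 1473 kb away. None of the E12.5 domains that held the region reached a domain of those 3 samples. A region of 294 kb on chromosome 2 (chr2:73888001-74182000) was alike: it touched a domain of E9.5 replicate 4 on the left, and in replicates 1, 2 and 3 the nearest domains were 2347, 266 and 165 kb away. Its E12.5 domains were 533, 474 and 412 kb long.

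The third in length, 384 kb on chromosome 8 (chr8:15532001-15916000), lay between E9.5 domains on both sides. E9.5 replicate 1 had a domain at the left edge and E9.5 replicate 4 one at the right edge. Replicate 4 had its next domain 128 kb to the left, in a gap of 512 kb, and replicate 1 had its next domain 365 kb to the right, in a gap of 749 kb. In replicates 2 and 3 the gaps were 5209 and 6622 kb. At E12.5 the region sat within single domains of 1105, 844 and 926 kb. The 316 kb region on chromosome 18 (chr18:40323001-40639000) came closest to filling a gap among the 10 longest. In E9.5 replicate 1 the gap was 339 kb, hardly longer than the region, and in replicates 2, 3 and 4 it was 1297, 1017 and 747 kb, while the E12.5 domains were 987, 880 and 1241 kb. Among all 250 regions, 7 shorter ones, of 44 to 163 kb, filled the whole gap of 1 E9.5 sample, and the longest of these was on chromosome 16 (chr16:12670001-12833000) in replicate 1.

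The 337 kb region on chromosome 11 (chr11:56253001-56590000) had E9.5 domains at both edges too, but from different samples. The one on the left was in replicate 2 and the one on the right in replicate 1. No single E9.5 sample flanked it on both sides, and the 4 gaps were 2109, 3130, 4754 and 7395 kb. Its E12.5 domains were 641, 626 and 798 kb long.

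The other 4 of the 10 longest had no E9.5 domain within 50 kb of either edge. The region of 325 kb on chromosome 12 (chr12:9256001-9581000) was at least 331 kb from a domain of any E9.5 sample, and its E12.5 domains of 623, 466 and 479 kb shared no base with any E9.5 domain. The 305 kb region on chromosome 11 (chr11:80856001-81161000) was at least 222 kb from one, and the E12.5 domain of replicate 2 was this region and nothing more, while those of replicates 1 and 3 were 423 and 698 kb long. On chromosome 12 a further region of 292 kb (chr12:73249001-73541000) lay in E9.5 gaps of 5157, 2643, 3138 and 4150 kb, at least 646 kb from any domain. Its 3 E12.5 domains, of 362, 578 and 320 kb, shared no base with an E9.5 domain. The 299 kb region on chromosome 7 (chr7:118477001-118776000) was a weaker case, since E9.5 replicate 2 had a domain 55 kb from its left edge that the E12.5 domains of replicates 2 and 3 reached.

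**Figure D1:**
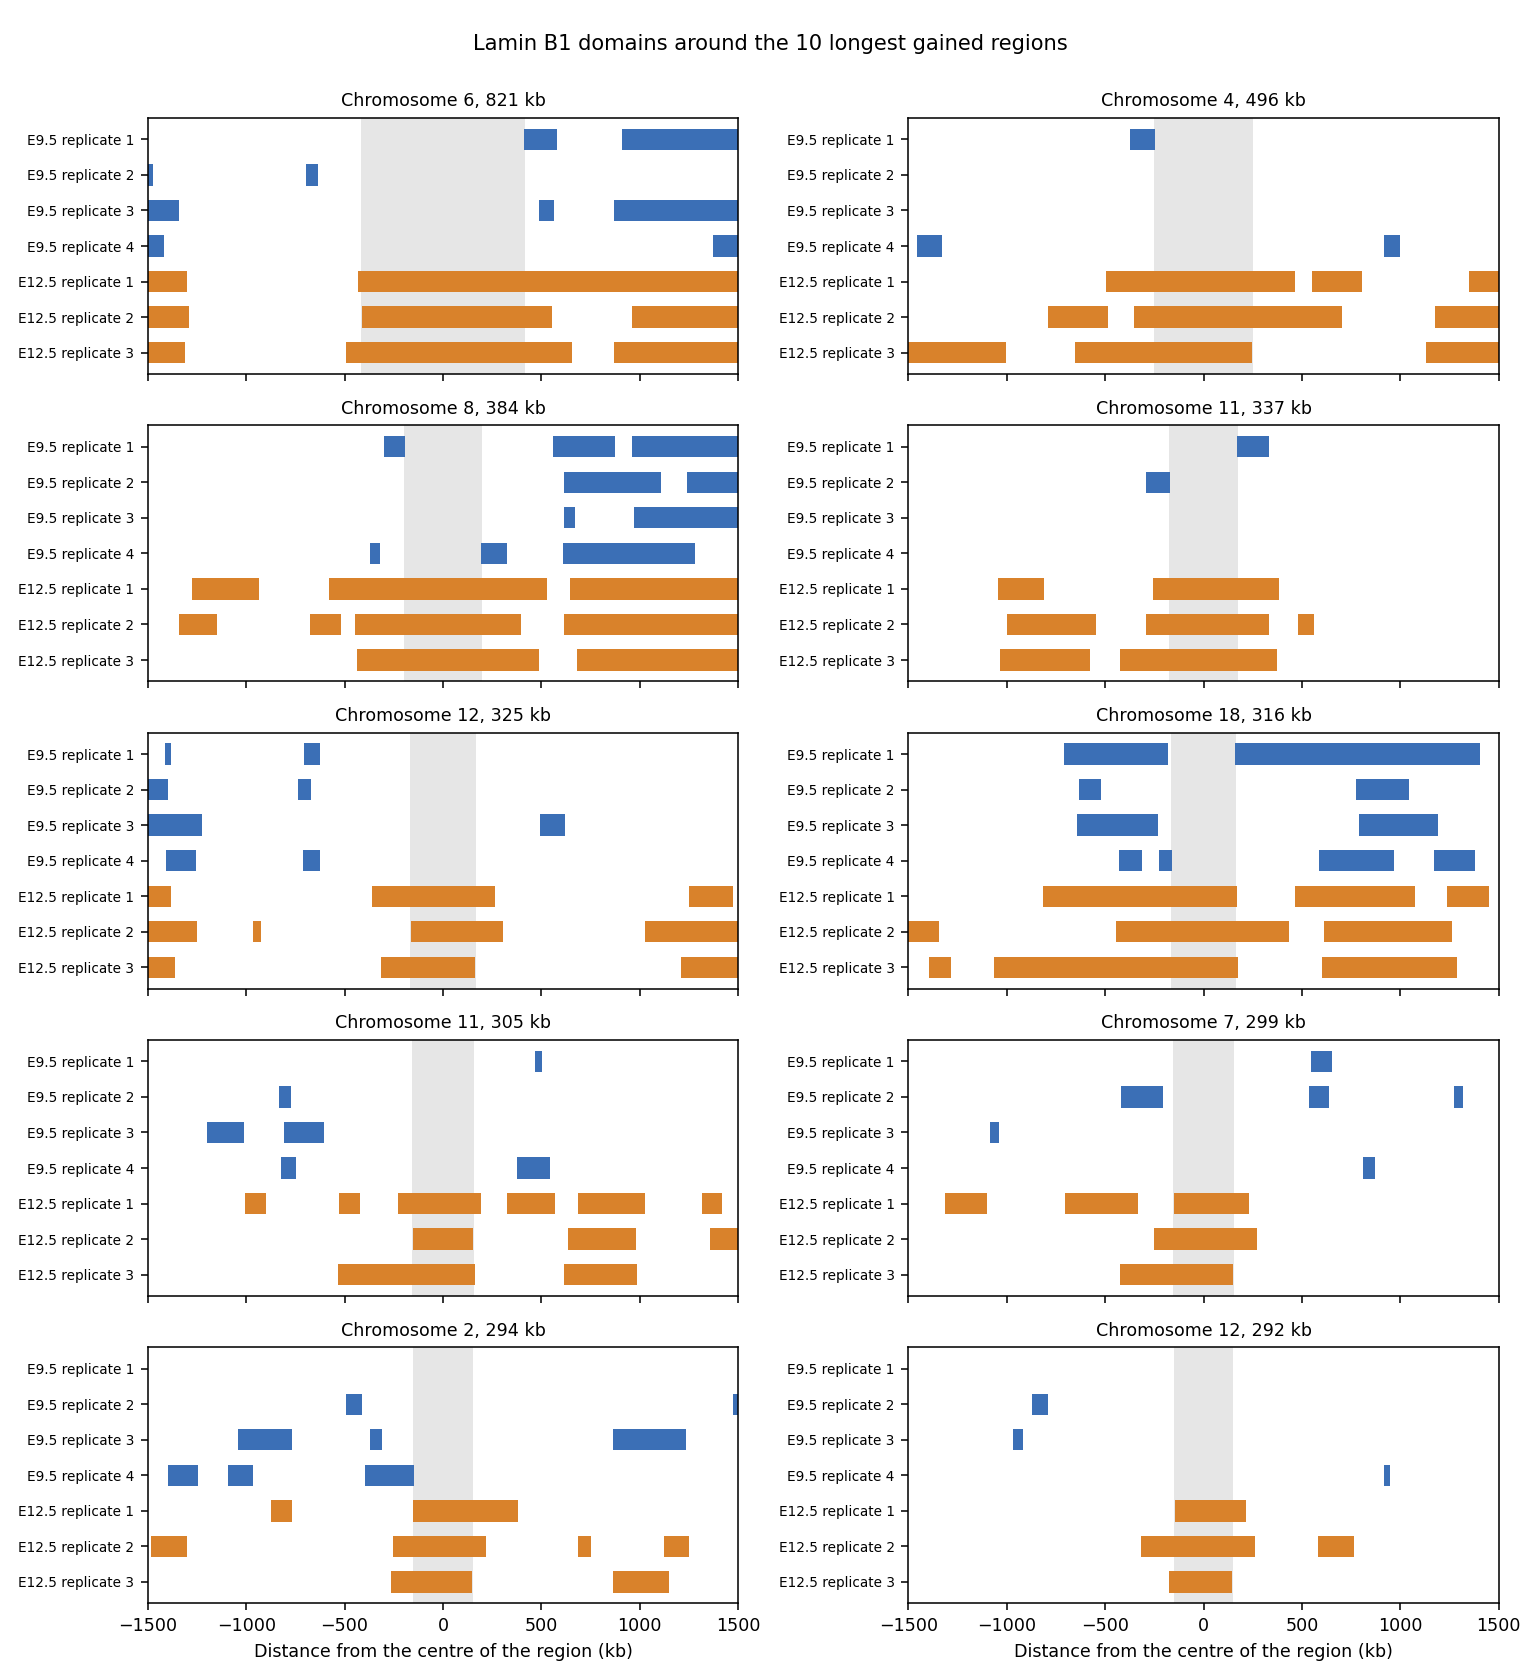
Each panel shows the Lamin B1 domains of the 4 E9.5 samples (blue) and the 3 E12.5 samples (orange) as bars, by distance in kb from the centre of one of the 10 longest gained regions, which is shaded. The shaded stretch of the 821 kb region on chromosome 6 is filled in all 3 E12.5 samples, and in every panel the E9.5 domains nearby differ from sample to sample.

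To ask whether gained regions extend a domain, bridge 2 domains or form new ones, the 50 kb on either side of each region was searched for domains of the E9.5 samples. With a domain of at least 1 E9.5 sample taken as enough, 143 of 250 regions (57.2%) had one on 1 side and are called extending. A further 55 (22%) had one on both sides and are called bridging, and 52 (20.8%) had none. The E12.5 domains were not asked to reach the E9.5 domain. For the extending region chr5:52620001-52771000, none of the 3 E12.5 domains shared a base with any E9.5 domain. Extending regions had a median length of 48 kb and bridging regions of 64 kb. The regions with no E9.5 domain nearby were longer, with a median of 117.5 kb, and held 29.1% of the gained length. These are called new here, but not all were new domains. The 3 E12.5 domains that held a region shared no base with any E9.5 domain for only 25 of all 250 regions. All classes overlapped in length, from 1 to 821 kb for extending, 1 to 384 kb for bridging and 2 to 325 kb for new regions. A gained region ends where an E9.5 domain begins, so part of the difference in length between classes is built in. It was not tested.

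These classes rested for the most part on 1 E9.5 sample. On the better supported of their sides, 106 regions had a domain of 1 E9.5 sample within 50 kb, 61 of 2 samples, 21 of 3 and 10 of all 4. Where domains of at least 2 E9.5 samples were asked for on a side, 81 regions (32.4%) extended, 11 (4.4%) bridged and 158 (63.2%) were new. New then means that neither side had enough samples, so a region next to a domain of 1 E9.5 sample counts as new. With at least 3 samples the counts were 29, 2 and 219. Of the 55 regions with E9.5 domains on both sides, 20 had them in a single sample and 35 only in different samples. With all 4 samples, 9 regions counted as extending and 1 as bridging.

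The same question was put to single samples, by taking the E12.5 domain that holds a region and asking whether it reaches domains of a given E9.5 sample on 1, both or neither side. Over the 12 pairs of 1 E9.5 and 1 E12.5 sample, 49.5% ± 6.01 (SD) of the regions extended, 11.7% ± 2.77 bridged and 38.7% ± 8.29 were new. The pairs share samples, so the SD is only a guide. The shares turned on the E9.5 sample: new regions made up 27.2% on average against replicate 1, 36.5% against replicate 2, 47.9% against replicate 3 and 43.3% against replicate 4. They hardly turned on the E12.5 sample, with 38.4%, 38.3% and 39.5% for replicates 1 to 3. Where an E12.5 domain did bridge, the E9.5 gap it closed had a median length of 215 to 340 kb in the 12 pairs, and the longest closed gap was 1131 kb.

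**Figure D2:**
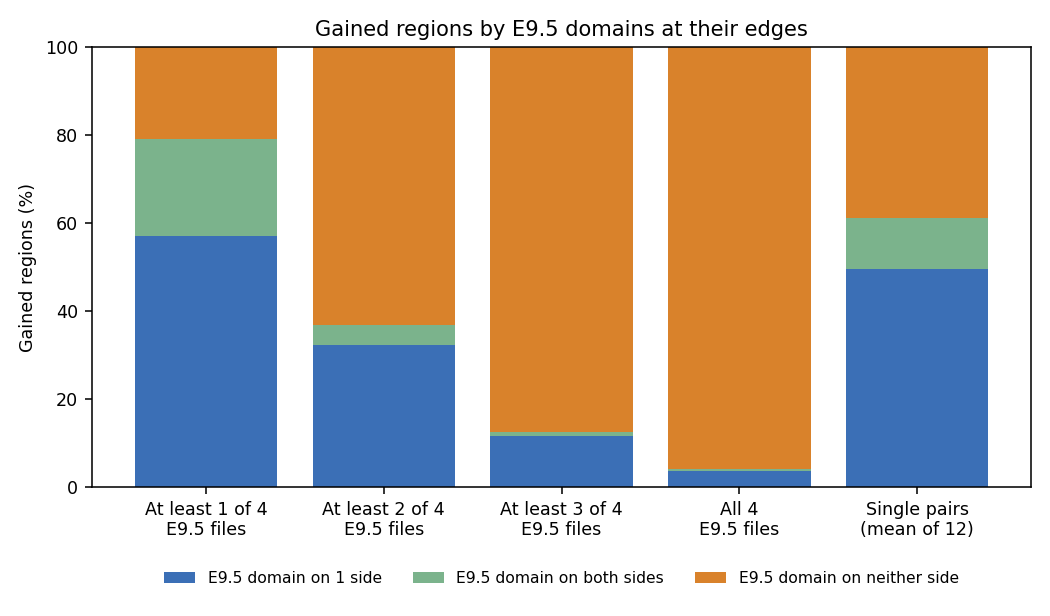
Stacked bars give the percentage of the 250 gained regions with an E9.5 domain on 1 side (blue), both sides (green) or neither side (orange). All bars but the last search within 50 kb, by the number of E9.5 samples that must have a domain. The last bar, for single pairs of samples, asks instead whether the E12.5 domain that holds the region reaches an E9.5 domain, at any distance. The share with neither side rises from 20.8% to 63.2% and 87.6% as 1, 2 or 3 samples are asked for. It is 38.7% in single pairs, by their own measure.

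Regions lost by E12.5, inside domains of all 4 E9.5 samples and of no E12.5 sample, numbered 275 and summed to 26.8 Mb (1.09% of the autosomes). With 1 E12.5 sample taken as enough, 63.6% of them had an E12.5 domain on 1 side, 22.5% on both and 13.8% on neither. The mirrored classes search 3 lists in place of 4, and the difference from the gained regions was not tested.

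Gained regions mostly lay within longer domains at E12.5. The domains that held them had a median length of 494.5, 472.5 and 480.5 kb in E12.5 replicates 1 to 3, each domain counted once, and a region took up a median of 9.53%, 10.3% and 11.5% of its domain. Only 61 regions were the whole of the stretch common to the 3 E12.5 samples. For 25 regions none of the 3 domains shared a base with any E9.5 domain, and for 200 regions all 3 did. Of the domains that held a region, 16.0%, 18.1% and 16.7% shared no base with an E9.5 domain, which is near the 16.8%, 18.7% and 15.0% among all autosomal domains of these samples.

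Nearly all edges of gained regions were set by single samples, which follows largely from the rule. A stretch ends at the first 1-kb position where any sample changes state. Of 500 edges, 262 (52.4%) lay where the domain of 1 E12.5 sample ended and 230 (46%) where a domain of 1 E9.5 sample began. E9.5 replicate 1 set 96 edges, replicate 2 set 55, replicate 4 set 45 and replicate 3 set 34. The E12.5 samples set 79, 89 and 94. E9.5 replicate 1 was also the sample with domains closest to the regions. The nearest domain was a median of 45.5 kb away in it, against 103, 188.5 and 176 kb in replicates 2, 3 and 4.

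Outside the edges, the samples of E12.5 stayed more often in domains over a long way. At 50 kb from an edge, 71.1% ± 2.50 (SD, n = 3) of edges were inside a domain at E12.5 and 19.1% ± 5.42 (SD, n = 4) at E9.5. At 200 kb the values were 49.1% ± 0.306 and 24.5% ± 5.36, and at 500 kb 34.6% ± 0.346 and 25.4% ± 1.49. The E9.5 samples at 500 kb, from 23.6% to 27.2%, lay below their cover of the whole autosomes, and the E12.5 samples, from 34.4% to 35%, lay above theirs. At 2000 kb the ages still did not overlap, with 24.6% to 29.9% at E9.5 and 34.1% to 35.5% at E12.5. The positions next to an edge are fixed in part by the rule, since domains are long. Farther positions can lie in other gained regions, which the rule places in every E12.5 list and in no E9.5 list. Such positions were not left out. Another gained region lay within 1 Mb for 38.4% of the regions and within 2 Mb for 58%. Part of the difference at the longer distances may therefore be built in too, and no test was made.

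**Figure D3:**
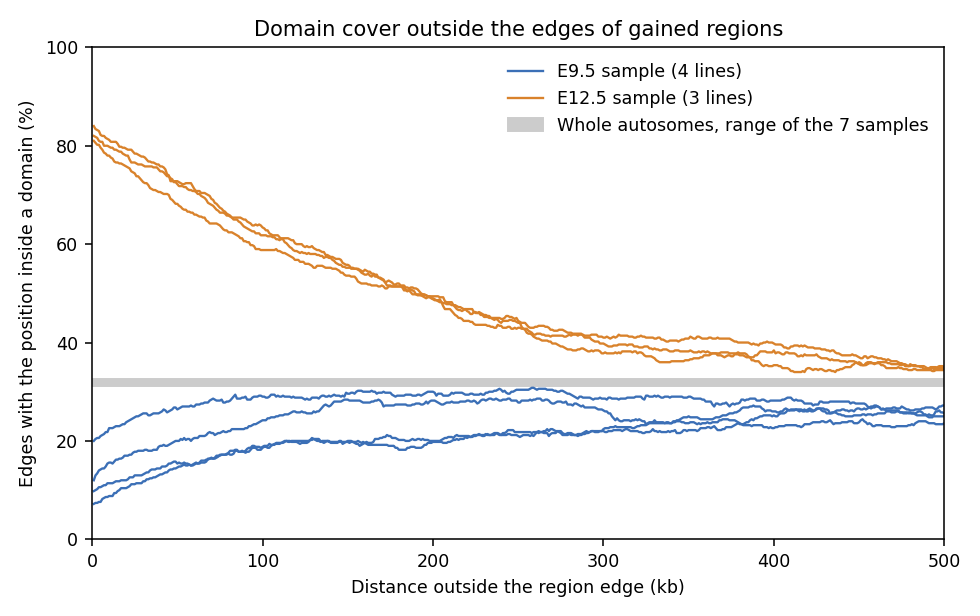
Lines show, for each of the 4 E9.5 samples (blue) and 3 E12.5 samples (orange), the percentage of the 500 edges at which the position lies in a domain, by distance outside the edge in kb, with the cover of the whole autosomes as a grey band. The E12.5 lines go from 81% to 84% at 1 kb to 34.4% to 35% at 500 kb and stay above the E9.5 lines, which go from 7.2% to 20% to 23.6% to 27.2%.

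Samples that had no part in choosing the regions gave the check of how well they recur. For each of the 12 pairs of 1 E9.5 and 1 E12.5 sample, regions were found by the same rule in the other 3 E9.5 and 2 E12.5 samples and then read in the pair left out. The looser rule gave 498 to 547 regions of 51.6 to 63.6 Mb in all. The E12.5 sample left out had 53.1% ± 2.05 (SD over 12 pairs) of this length in domains, from 50.4% to 57.4%. The E9.5 sample left out had 19.9% ± 5.38, from 12.7% to 28.9%. The E12.5 sample was higher in 12 of 12 pairs, by 33.2 percentage points on average and by 25.9 at the least. The E12.5 samples lay above and the E9.5 samples below the 31.1% to 32.6% of the autosomes that domains cover. The 12 pairs reuse 7 samples and are not independent, so no p is given.

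These shares can be set beside those at autosomal positions in general. At all positions inside both other E12.5 samples, the E12.5 sample left out was inside a domain at 79.4% to 81.2%. At all positions outside the other 3 E9.5 samples, the E9.5 sample left out was inside one at 4.92% to 7.23%. Among the E9.5 samples, replicate 1 was inside the regions most often when left out, at 28.1% on average, followed by 19.7% for replicate 2, 17.2% for replicate 3 and 14.6% for replicate 4. This order is that of the number in the names of their lists, 0.17, 0.15, 0.14 and 0.12, which may be a calling setting, and its part in the result was not tested. Other measures had another order. The nearest domain to the 250 regions was a median of 45.5, 103, 188.5 and 176 kb away in replicates 1 to 4. Autosomal cover was 789.7, 804.5, 765.9 and 769.7 Mb. When left out, the E12.5 samples were alike, at 54.1%, 52.0% and 53.2%.

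**Figure D4:**
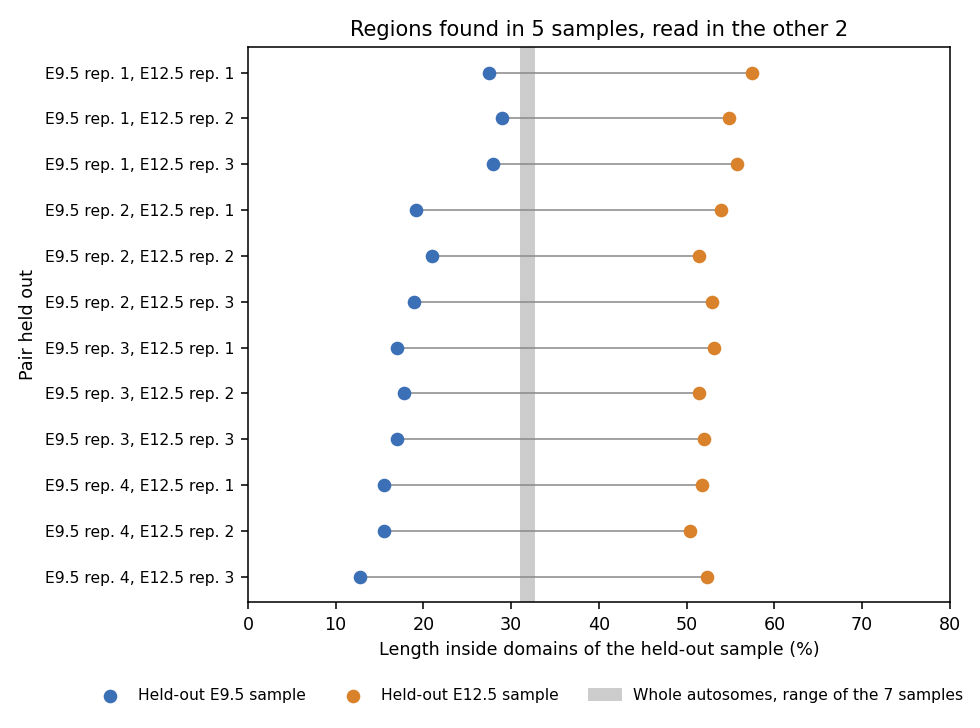
Each row is one of the 12 pairs of samples left out, with the percentage of the length of gained regions, as found in the other 5 samples, that lies in domains of the E9.5 sample (blue) and of the E12.5 sample (orange) left out. All E12.5 points lie between 50.4% and 57.4% and all E9.5 points between 12.7% and 28.9%, on either side of the grey band of 31.1% to 32.6% for whole autosomes.

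Along the chromosomes, 96 of the 250 regions (38.4%) had another gained region within 1 Mb, in 34 pairs, 6 groups of 3 and 2 larger groups, and 154 stood alone. The median distance to the next gained region was 4432 kb. Of 275 lost regions, 55.3% had another lost region within 1 Mb, a difference that was not tested. Neighbours within 1 Mb were a median of 198 kb apart. Of the 54 gaps between such neighbours, 23 lay in domains of all 3 E12.5 samples from end to end, so that the 2 regions belonged to the same common E12.5 stretch. A domain of at least 1 E9.5 sample lay in 43 of the gaps. In 24 of these no position was shared by more than 1 E9.5 sample, and in 3 some position was shared by all 4. Some of the 24 also held positions in no E12.5 domain, such as the gap of 899 kb on chromosome 6 (chr6:93490001-94389000).

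The cluster with the most regions held 6 on chromosome 9 (chr9:28092001-30387000), with lengths of 48, 139, 71, 3, 163 and 57 kb. Over its 2295 kb, domains covered 17.5%, 5.23%, 24.7% and 1.70% at E9.5 in replicates 1 to 4, and 82.5%, 82.0% and 44.8% at E12.5 in replicates 1 to 3. All E12.5 samples were above all E9.5 samples, and E12.5 replicate 3 was well below the others of its age. The cluster was chosen for its gained regions, which the rule places in every E12.5 list and in no E9.5 list. Part of the difference between the ages is therefore built in, and it was not tested.

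A cluster of 4 regions on chromosome 8 (chr8:15287001-16121000), which includes the 384 kb region, spanned 834 kb. It was covered without a break by 1 domain in each E12.5 sample. At E9.5, replicates 2 and 3 had no domain in it, replicate 1 had 1 and replicate 4 had 2, covering 12.8% and 21.8%. Here the 4 regions are pieces of 1 E12.5 domain, parted by short E9.5 domains of single samples. Whether that domain was gained as a whole or grew from these E9.5 domains was not tested. A cluster on chromosome 15 (chr15:30278001-30952000) held 3 regions of 84, 207 and 133 kb. A single domain covered all 674 kb in each E12.5 sample, and each E9.5 sample had 1 domain there, covering 15.6%, 10.5%, 18.2% and 26.6%. The gap of 71 kb between the first 2 regions held a domain of 1 E9.5 sample at most at any position, and part of the gap of 179 kb between the last 2 was shared by 3 E9.5 samples.

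Gained length was uneven between autosomes. Chromosome 19, with 61.3 Mb, had 11 regions and 19.5 kb of gained length per Mb, where all autosomes together had 9.17 kb per Mb. Its domains covered 13.4, 17.0, 13.7 and 15.2 Mb at E9.5 and 19.5, 18.4 and 18.7 Mb at E12.5, so the ages did not overlap. The chromosome was picked by gained length from these same lists, so part of this separation is built in, and it was not tested. Chromosome 8 followed with 16.2 kb per Mb in 21 regions and chromosome 6 with 15.2 kb per Mb, also in 21 regions. On these chromosomes the cover of the ages did overlap. Chromosome 8 had 37.2 to 42.6 Mb at E9.5 and 39.8 to 45.3 Mb at E12.5, and chromosome 6 had 49.7 to 56.3 Mb and 51.6 to 54.6 Mb. Chromosome 6 was thus rich in gained regions with no gain in cover, and it also had 22 lost regions of 2.69 Mb.

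The lowest gained lengths per Mb were on chromosome 5 (3.78 kb in 9 regions), chromosome 2 (5.03 kb in 13) and chromosome 3 (5.04 kb in 11). Gained exceeded lost length on 8 autosomes and lost exceeded gained on 11. The widest contrast in favour of gain was on chromosomes 15, 18 and 19, which had 19, 9 and 11 gained regions against 2 lost regions each.

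Gained regions were also uneven along the length of the chromosomes. Mouse autosomes have their centromere at the end where the coordinates begin. When each autosome was cut into 4 equal parts, a division chosen after the data had been seen, the part nearest the centromere held 61 gained regions, the second part 94, the third 60 and the part at the far end 35. Lost regions numbered 75, 45, 86 and 69. On 15 of 19 autosomes the second part had more gained regions than the far end, on 1 the numbers were equal and on 3 it had fewer. Domain cover, taken from the same lists as the regions, differed between the ages in the second part and at the far end. The second part had 196.7 to 210.0 Mb in domains at E9.5 and 214.1 to 222.7 Mb at E12.5, and the far end had 165.3 to 182.9 Mb and 153.7 to 159.7 Mb, without overlap of the ages in either. The ages overlapped in the part nearest the centromere, with 176.6 to 191.1 Mb and 181.3 to 190.5 Mb, and in the third part, with 218.1 to 235.0 Mb and 217.7 to 222.6 Mb.

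**Figure D5:**
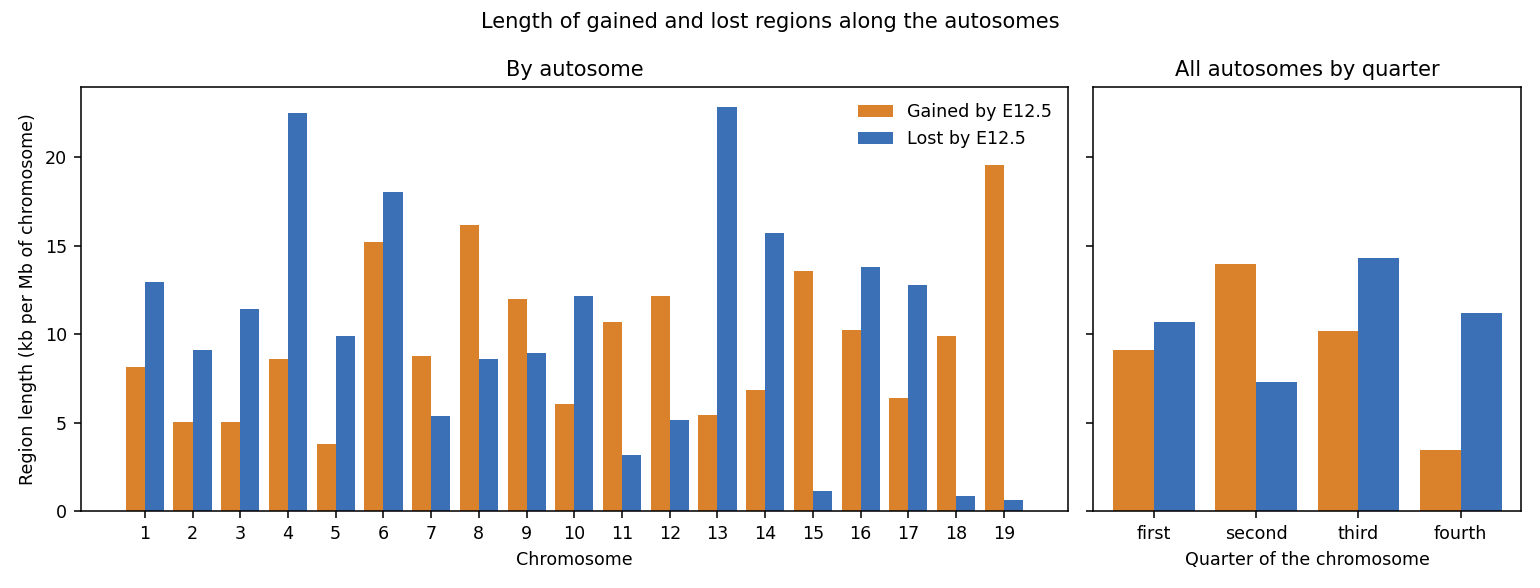
Bars give the length of gained (orange) and lost (blue) regions in kb per Mb, for each autosome on the left and for the 4 equal parts of all autosomes together, counted from the centromere end, on the right. Gained length peaks on chromosome 19 at 19.5 kb per Mb and in the second part at 13.9 kb per Mb, and is 3.45 kb per Mb in the fourth.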

How the data were processed

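Lamin B1 ChIP-seq of whole embryonic hearts was analysed in 7 samples (4 at E9.5, 3 at E12.5). The 2 inputs of the series were not analysed here. Per the submitters' processing notes, the authors used Bowtie (version not stated) and build mm9. How domains were called from the reads, and whether the input was used, is not stated. The deposited lists hold a chromosome, start and end per domain, in whole kb and with no score, so depth is unknown. The list names carry a number of unstated meaning, which may be a calling setting (from 0.12 to 0.17 in the E9.5 lists and from 0.12 to 0.13 in the E12.5 lists), whose part in the results was not tested.

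Positions, regions, distances and cover were computed in Python 3.11.15 with numpy 2.4.6 and pandas 2.3.3, and the script was tested on simulated lists. Coordinates are 1-based on mm9. Genes and base composition were not analysed here, since the annotation at hand is on GRCm38. The regions named are the 10 longest, the longest 2 of each class, the 3 largest clusters and the 3 chromosomes with most and least gained length per Mb. Nothing was tested between ages, since the rule used all samples. The regions and measures were chosen with earlier results of these data known. Alternatives were leaving out each sample, minimum lengths, joining domains, 1 exception per age, and other distances and numbers of samples.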

Additional observations from a re-analysis of the deposited data

Results flagged for a closer look

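Among 40 values checked within the 4 E9.5 samples, 1 stood apart: the median autosomal domain was 227 kb in E9.5 replicate 4 and 241 to 243.5 kb in the other three. Chance places about 1 in 20 such values apart, which is 2 of 40. Replicate 4 did not stand apart in any of the values of the gained regions that were checked.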

How the results depend on the processing

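Of 85 values recomputed under alternatives, 53 stayed close to the value reported (counts and lengths within 1.5 times, shares within their 95% Wilson interval) and 32 did not. With 1 sample left out, which loosens the rule, there were 296 to 450 regions of 27.0 to 45.2 Mb in all, with 39% to 50.7% near another, and the 3 classes stayed at 54% to 60.7% extending, 19.5% to 23% bridging and 18.9% to 23.3% new. With 1 exception allowed per age there were 1269 regions of 167.4 Mb, 80.3% of them near another. With only regions of at least 50 kb, 145 were left, of which 49.0% extended, 29.7% were new and 32.4% were near another. With only domains of at least 100 kb, 17.0% bridged. The share near another was 32.4% within 0.5 Mb and 58% within 2 Mb. With a search of 100 kb, 30.8% bridged and 16% were new. Where at least 2 E9.5 samples were required, 32.4% extended, 4.4% bridged and 63.2% were new, and with at least 3 samples 11.6%, 0.8% and 87.6%. New regions here include those with E9.5 domains of fewer samples nearby. In single pairs of samples, a different measure added after seeing the data, the shares were 49.5%, 11.7% and 38.7%. The difference between the samples left out, 33.2 percentage points, was 34.2 with regions of at least 50 kb and 34.8 with domains of at least 100 kb. The files hold no score, so a stricter calling threshold was not run. No paired analysis was possible, since the samples of the ages are separate pools with no stated link, and no result comes from a test.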

Other observations

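Gained and lost regions lay apart from each other. No gained region lay within 100 kb of a lost one, the closest being 171 kb away, and 19 of 250 (7.6%) had a lost region within 1 Mb, where 96 had another gained region within that distance. Of the 275 lost regions, 21 (7.64%) had a gained region within 1 Mb, and 55.3% had another lost region. The median distance from a gained region to the nearest lost one was 6761 kb. Domains are long and all 7 lists would have to change state between a gained and a lost region, so short distances are limited by the rule, and no test was made. Of 258 windows of 10 Mb, 56 held regions of both kinds, 81 only gained, 71 only lost and 50 neither. The windows with 5 or more gained regions were 4, of which 3 had no lost region: 1 on chromosome 9 with 6 gained regions and 2 on chromosome 15 with 5 each.

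Gained regions were mostly distant from the stretches that all 7 samples shared. The nearest such stretch was a median of 1343 kb away, and for 143 of 250 regions it was beyond 1 Mb. Stretches shared by all 7 samples take up 11.2% of the autosomes. The same distance was not measured for lost regions or for autosomal positions in general. The distance therefore cannot be called particular to gained regions. For bridging regions the median was 702 kb, for extending regions 1357 kb and for new regions 2733.5 kb. In 52 regions (20.8%) the common E12.5 stretch that held the region also held a position shared by all 7 samples. The classes were defined by the distance to E9.5 domains, so an order among them in this distance is built in to some degree.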
